A study of Caenorhabditis elegans with 2 samples.

Results

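The regions described here are those that fell just short of the set of binding sites that passed reproducibility thresholding. EFL-1, the worm E2F factor, was mapped by chromatin immunoprecipitation and sequencing in Caenorhabditis elegans. They were chosen by the signal value that the authors' peak caller gave to regions called on both replicates together: every region on the 5 autosomes with a signal from 25 to below 40 that is absent from the thresholded list, called optimal. There were 2124 such regions among 28444 autosomal and 30000 total regions of the joint list. All samples were young adult hermaphrodites of strain YL478, in which EFL-1 carries a C-terminal GFP and FLAG tag, and chromatin of whole animals was immunoprecipitated. The labels conflict on the antibody: the description says anti-GFP and the antibody field says efl-1, so it is not settled here whether untagged EFL-1 could also have been pulled down. The 2 biological replicates form 1 group, so nothing below compares conditions. Whether the strain keeps an untagged copy of efl-1 is not stated, and whole animals mix germ line and somatic tissues, in which binding in fewer cells and weaker binding per cell cannot be told apart. The number of reads is not given in the lists, so depth is unknown.

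E2F factors bind DNA together with a DP partner, which is DPL-1 in the worm, and are known for controlling genes of the cell cycle. With the pocket protein LIN-35 and other subunits they form the DREAM complex, which holds target genes at low expression. DREAM can touch DNA in more than one way: the E2F and DP pair reads a GC-rich core sequence, and LIN-54 reads a short element called CHR. In the adult worm, EFL-1 is best known for its role in the germ line.

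To show what the DNA at these regions looks like, the windows below give 61 bases around the summit or around the motif match nearest to it, read from the RefSeq sequence of build ce11. The first set holds members with the E2F core TTSSCGC (S stands for either C or G) no more than 100 bp from the summit. It is read 5′ to 3′ on the strand that carries the core, whose letters are in capitals.
npp-20: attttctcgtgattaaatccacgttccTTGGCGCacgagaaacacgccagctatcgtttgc
gars-1: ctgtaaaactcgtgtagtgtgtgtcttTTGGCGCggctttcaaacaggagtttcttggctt
rpc-2: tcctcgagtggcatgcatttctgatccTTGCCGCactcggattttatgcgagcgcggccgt
him-17: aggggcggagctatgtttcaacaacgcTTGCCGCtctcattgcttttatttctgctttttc
par-5: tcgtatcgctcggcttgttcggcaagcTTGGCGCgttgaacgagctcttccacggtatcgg
unc-112: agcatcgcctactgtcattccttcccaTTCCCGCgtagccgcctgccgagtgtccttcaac
The windows lie at chrIV:1496134-1496194 (minus strand, intergenic) for the nuclear pore gene npp-20, chrIII:5162493-5162553 (plus strand, the summit in an intron) for the glycyl-tRNA synthetase gene gars-1, and chrIII:5557384-5557444 (minus strand, the summit in a coding exon) for the RNA polymerase III gene rpc-2. Those of the meiotic gene him-17, the 14-3-3 gene par-5 and the muscle attachment gene unc-112 lie at chrV:13176568-13176628 (plus strand, intergenic), chrIV:11821833-11821893 (plus strand, the summit in a coding exon) and chrV:14697063-14697123 (minus strand, intergenic). The distance from the middle of the core to the summit was 6 bp at rpc-2, 9 bp at gars-1, 30 bp at par-5, 34 bp at npp-20, 54 bp at him-17 and 72 bp at unc-112. The core read TTGGCGC in 3 of them, at npp-20, gars-1 and par-5.

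The second set has no TTSSCGC within 100 bp of the summit, and the capital marks the summit base on the plus strand. They are shown as members beside stronger peaks: all overlap an optimal peak, and the high replicate values by which they were picked can be those of that peak.
mog-4: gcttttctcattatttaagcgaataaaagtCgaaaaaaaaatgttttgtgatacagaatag
F42C5.9: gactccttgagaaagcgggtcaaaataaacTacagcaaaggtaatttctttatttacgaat
R186.8: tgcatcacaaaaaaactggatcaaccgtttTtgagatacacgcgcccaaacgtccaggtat
pro-1: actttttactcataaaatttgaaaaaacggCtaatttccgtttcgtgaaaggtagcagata
They lie at chrII:14561984-14562044 (intergenic, near the splicing helicase gene mog-4), chrIV:7316833-7316893 (in an intron, F42C5.9), chrV:12968160-12968220 (intergenic, R186.8) and chrII:10542298-10542358 (intergenic, near pro-1). Each summit was between 199 and 211 bp from the summit of an optimal peak. A further set, picked after the values were seen, shows members at genes of cell division and small RNAs whose windows hold the CHR-like TTYGAA (Y is C or T), and a member at a tRNA gene (WBGene00014630) with GTTCGANNC of the tRNA promoter's B box. They are read on the strand of the match, in capitals.
cdk-1: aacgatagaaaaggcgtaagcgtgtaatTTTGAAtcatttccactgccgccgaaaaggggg
tofu-2: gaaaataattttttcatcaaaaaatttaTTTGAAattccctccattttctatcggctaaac
tRNA gene: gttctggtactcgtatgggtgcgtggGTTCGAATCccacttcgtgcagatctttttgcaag
They lie on the minus strand at chrIII:9747371-9747431, chrV:7051336-7051396 and chrIV:11928464-11928524. The tRNA gene itself runs from 11928478 to 11928596 of chromosome IV on the minus strand.

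Signal values lie close together on both sides of each limit. The members just below 40 had signals of 39.9997 (inside the tRNA gene WBGene00014630, 2311 bp upstream of nhx-9, the nearest protein-coding start), 39.9897 (395 bp upstream of str-206), 39.9724 (at another tRNA gene) and 39.9624 (154 bp upstream of farl-11, between divergent genes). The weakest optimal autosomal peaks had 40.1337 (near ucr-2.3), 40.1493 (at alh-7), 40.1838 (at mdt-31) and 40.2073 (in an intron, Y75B8A.25). Another 11 autosomal regions had a signal of at least 40 without being optimal, and are not members. At the lower end the last members had 25.0083 (at eri-1), 25.0088 (at cul-1, a cullin gene) and 25.012 (near F10E9.7), and the next regions had 24.9977 (near elf-1), 24.9975 (near rol-8) and 24.9933 (near lelo-2). Members ranked 2837 to 5066 of the joint list, with a median signal of 30.2. The authors' −log10 q-value ran from 2.89 to 3.88 in members, with a median of 3.46, against 3.88 in every autosomal optimal peak and 1.96 to 2.89 in the next weaker 2124 autosomal regions, which serve as a comparison below. The median width was 290 bp in members, optimal peaks and next weaker regions alike.

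Most members had a region of low signal in each single replicate. Of the 2124 members, 2005 (94.4%) overlapped a region of both replicate lists by at least 1 bp. Another 70 overlapped one of replicate 1 alone, 49 one of replicate 2 alone, and none lacked both. Such an overlap with both lists was also found for 2690 optimal peaks (98.97%) and 1730 next weaker regions (81.45%). In replicate 1 the members' values ran from 4.28 to 109.9, with a median of 17.2 and quartiles of 13.3 and 22.2. In replicate 2 they ran from 4.06 to 103.8, with a median of 13.8 and quartiles of 10.3 and 18.2. The joint list was called on both replicates together, so these values are not independent of the choice of members and carry no test. In 1379 members the replicate values were within a factor of 2 of each other. Replicate 1 was the higher by more than that in 460 members and replicate 2 in 166. The scale of each list is not given, so this count of unequal members is a description. With a stricter rule, a replicate summit within 100 bp of the member's summit, 1519 members (71.5%) were found in both replicates, against 2542 (93.5%) of the 2718 optimal peaks and 1095 (51.6%) of the next weaker regions. Only 455 members (21.4%) were among the strongest 5000 regions of both replicates, against 2494 optimal peaks (91.8%) and 85 of the 2124 next weaker regions. Another 353 members were in neither replicate's strongest 5000. On the overlap, summit and strongest 5000 counts members stood between the optimal peaks and the next weaker regions. Among regions found in both replicates, the share within a factor of 2 was not higher in members (1379 of 2005) than in next weaker regions (1204 of 1730). It was higher in optimal peaks (2207 of 2690). The choice by joint signal bears on all of these counts.

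**Figure D1:**
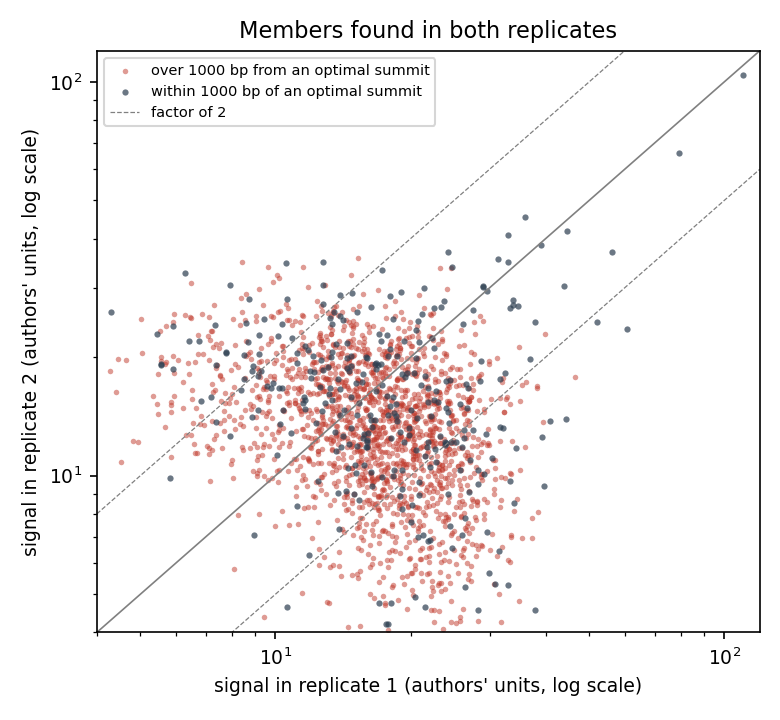
Signal value of each of the 2005 members found in both replicates, replicate 1 on the x axis and replicate 2 on the y axis, both in the authors' units on log scales; each point is a region, dark points lie within 1000 bp of an optimal summit, and dashed lines mark a factor of 2. Most points lie between 4 and 40 in each replicate, and those above 50 in both are dark points next to optimal peaks.

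A replicate's value here is that of the strongest region of its list that overlaps the member, so a member beside a stronger peak can carry that peak's value. Ranking by this value therefore favours neighbours of optimal peaks by construction, and the counts that follow describe the ranking. Of the 20 members with the highest value in the weaker of their replicates, 17 overlapped an optimal peak and 19 had an optimal summit within 1000 bp. The highest was on chromosome I from 4537294 to 4537583, 2290 bp downstream of the start of zig-9, with a joint signal of 28.0 but 109.9 in replicate 1 and 103.8 in replicate 2. Its summit lay between 200 and 222 bp from an optimal summit, as did those of the members near mog-4 (79.5 and 66.2 in replicates 1 and 2), in an untranslated exon near spn-4 (56.4 and 36.9), at moag-4 (33.0 and 40.9), at cpz-1 (31.4 and 35.6), at unc-101 (33.3 and 26.6) and in an intron 869 bp downstream of the start of efl-1 (32.9 and 34.9, V, 16964661 to 16964950, joint signal 30.1). The worms carry a tagged efl-1, and a part of the transgene in the signal at that locus was not tested. The only one of the 20 with no optimal summit within 1000 bp was in an intron of F18A11.5 (28.6 and 25.39). Over all members this nearness was not common. Of the 2124, 32 overlapped an optimal peak and 314 (14.8%) had an optimal summit within 1000 bp, against 338 optimal peaks (12.4%) with another optimal summit that near and 346 next weaker regions (16.3%). The median distance to the nearest optimal summit was 3871 bp for members and 3875 bp to the nearest other one for optimal peaks.

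Away from optimal peaks the members with the highest values in both replicates were at genes of several kinds. Among the 1810 members over 1000 bp from an optimal summit, the 15 with a replicate summit within 100 bp in both replicates and the highest lower value were listed after the values were seen. At T26A5.8 the values were 28.9 in replicate 1 and 24.8 in replicate 2, in a coding exon 58 bp downstream of the start. At rab-7, a GTPase gene of late endosomes, they were 23.3 and 33.6, 23 bp downstream of the start. At C15H11.11 they were 27.8 and 22.9, 83 bp upstream of the start and between divergent genes. The member upstream of hmg-1.1, a high mobility group gene, had 23.01 and 21.7, that in an intron of R102.4 had 22.4 and 23.7 and contained TTSSCGC, and that of W02A2.8 had 23.5 and 22.2. The other 9 had no protein-coding start within 500 bp, among them a second member near npp-20, 791 bp upstream of its start (22.2 and 22.4, with TTSSCGC), and members near gcy-28 (22.1 and 25.7, with TTSSCGC) and cmd-1, the calmodulin gene (22.4 and 22.1). All 15 were within a factor of 2 between replicates, and 4 of them contained TTSSCGC.

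Fewer members than optimal peaks lay near gene starts, and more lay in coding exons. A summit within 500 bp of an annotated start of a protein-coding gene was found for 976 of 2124 members (45.95%, exact 95% interval 43.8 to 48.1), against 65.3% of optimal peaks (odds ratio 0.451, interval 0.401 to 0.507, adjusted p = 1.25e-40), 54.5% of the 679 weakest optimal peaks (signals from 40.1 to 53.8; odds ratio 0.710, adjusted p = 2.68e-04) and 38.2% of the next weaker regions (odds ratio 1.38, interval 1.22 to 1.56, adjusted p = 9.35e-07). Of all autosomal bases, 24.1% lie that near to a start. These are two-sided Fisher's exact tests adjusted over 33 tests of the same kind by Benjamini-Hochberg. Intervals and tests cover counting error over regions, which are not independent replicates. With a window of 1000 bp the difference from the next weaker regions did not pass (odds ratio 1.12, Fisher's exact p = 0.0791). The fall was gradual within the members too, with 51.9% at signals of 35 to 40, 47.9% at 30 to 35 and 42.2% at 25 to 30. In the weakest bin of the list, signals of 7 to 10, it was 24.6%.

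**Figure D2:**
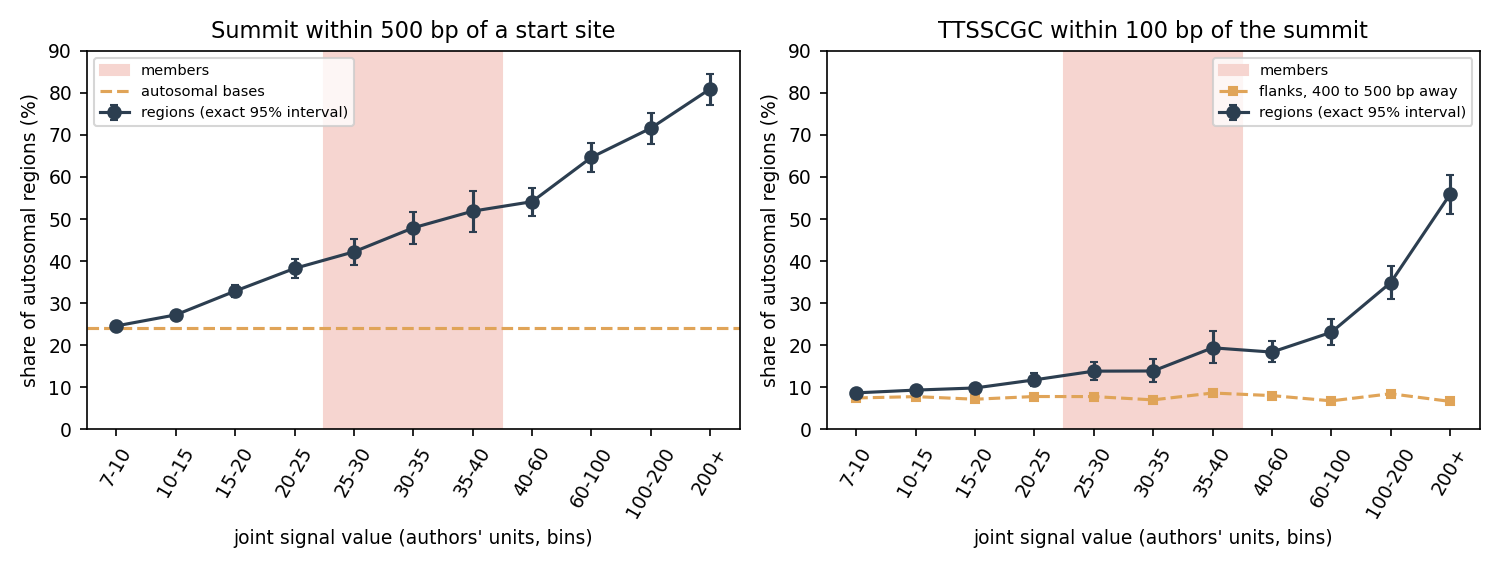
Share of autosomal regions with a summit within 500 bp of a protein-coding start (left) and with TTSSCGC within 100 bp of the summit (right), in %, by bin of the joint signal value from low to high; bars are exact 95% intervals, the shaded bins hold the members, and dashed lines show autosomal bases (24.1%) on the left and flanking sequence on the right. Both shares are higher at high than at low signals: the promoter share is 51.9% at 35 to 40 and 54.1% at 40 to 60, and the TTSSCGC share 19.4% and 18.4%.

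By annotation, 780 member summits (36.7%) were intergenic, against 65.2% of optimal peaks (odds ratio 0.310, Fisher's exact adjusted p = 1.68e-85), 52.9% of the 679 weakest optimal peaks and 25.5% of the next weaker regions. Coding exons held 532 member summits (25.05%), against 6.51% of optimal peaks (odds ratio 4.796, interval 3.99 to 5.78, Fisher's exact adjusted p = 6.16e-73), 11.9% of the 679 weakest optimal peaks (odds ratio 2.47, adjusted p = 2.98e-13) and 34.6% of the next weaker regions. Coding exons make up 25.6% of autosomal bases and intergenic sequence 31.6%. Introns held 453 member summits (21.3%), against 15.4% of optimal peaks, and 34.6% of bases. Untranslated exons held 264 (12.4%), against 7.58% of optimal peaks and 4.72% of bases. Differences from the 679 weakest optimal peaks in introns (odds ratio 1.09, interval 0.877 to 1.37) and untranslated exons (1.25, 0.943 to 1.69) did not pass. Among promoter members 573 of 976 summits (58.7%) lay on the upstream side of the closest start, at a median of 162 bp, against 1479 of 1776 optimal promoter peaks (83.3%), at a median of 176 bp. Many worm transcripts are trans-spliced, so the annotated start can lie downstream of the true one. A promoter member had divergent start sites of different genes within 500 bp of its summit in 107 cases (11.0%), against 431 optimal peaks (24.3%). The summit did not have to lie between them.

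**Figure D3:**
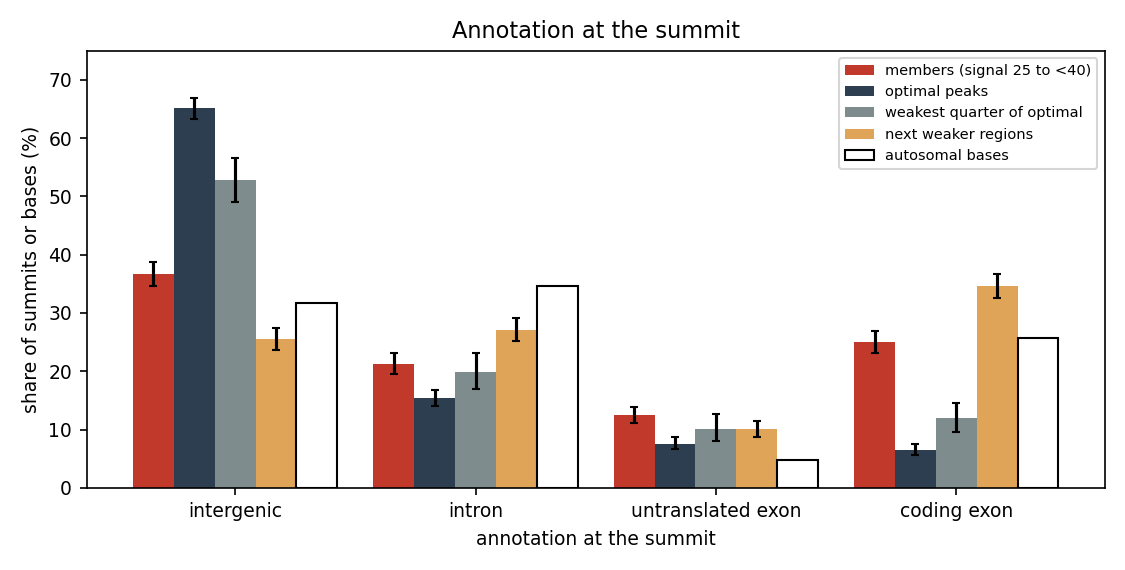
Share of summits in % by annotation (intergenic, intron, untranslated exon, coding exon) for members, optimal peaks, the 679 weakest optimal peaks and next weaker regions, with exact 95% intervals, and the share of autosomal bases (open bars). Members sit at 25.05% in coding exons, against 6.51% for optimal peaks and 25.6% of bases.

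Members were spread over all autosomes much as the optimal peaks were. There were 504 on chromosome I, 391 on II, 500 on III, 404 on IV and 325 on V, or 33.4, 25.6, 36.3, 23.1 and 15.5 per Mb, and between 0.755 and 0.797 members per optimal peak on each. The middle of 3 equal parts of each chromosome, which in the worm is rich in conserved genes, held 42.9% of members against 39.1% of optimal peaks (odds ratio 1.17, interval 1.04 to 1.31, Fisher's exact adjusted p = 0.0144). Against the next weaker regions, at 42.5%, it did not pass (odds ratio 1.02, interval 0.898 to 1.15).

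The E2F core was found at members less often than at optimal peaks but more often than in their own flanks. TTSSCGC, searched on both strands as TT, then 2 bases that are each C or G, then CGC, lay within 100 bp of the summit in 318 members (14.97%, exact 95% interval 13.5 to 16.6). It lay in the flanks, 400 to 500 bp away on both sides, in 164 members (7.72%). In 282 members it was in the centre alone and in 128 in the flank alone (exact binomial test, adjusted p = 1.10e-13). Of autosomal tiles as long as the central window 6.51% hold it, as do 6.45% of windows of that length upstream of the outermost start of each gene. Optimal peaks held it in 29.7% of cases (odds ratio for members 0.418, interval 0.360 to 0.484, Fisher's exact adjusted p = 2.93e-33), with 7.58% in their flanks. Against the 679 weakest optimal peaks, at 17.7%, the difference did not pass (odds ratio 0.820, interval 0.648 to 1.04, Fisher's exact adjusted p = 0.139). The next weaker regions held it in 11.6% of cases (odds ratio 1.34, interval 1.12 to 1.61, Fisher's exact adjusted p = 0.00268). Mean GC content within 100 bp of the summit was 38.7% ± 6.72 (SD over 2124 regions) in members, 38.8% ± 6.40 in optimal peaks and 38.8% ± 6.72 in next weaker regions. It was lower in the flanks, at 37.3% ± 6.46 for members and 37.7% ± 6.24 for optimal peaks, and 35.5% over all autosomal bases. A part of GC content in the motif shares was not tested.

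**Figure D4:**
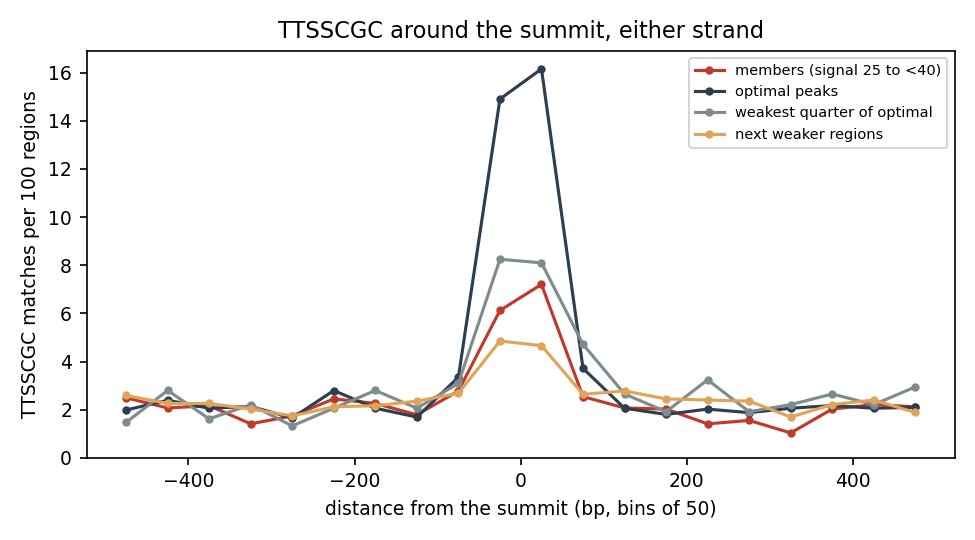
Matches of TTSSCGC per 100 regions, on either strand, by distance from the summit in bins of 50 bp, for members, optimal peaks, the 679 weakest optimal peaks and next weaker regions. All 4 curves rise within 50 bp of the summit; members reach 6.12 and 7.20 matches per 100 regions in the central bins and between 1.04 and 2.50 in the bins beyond 100 bp.

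The core was unevenly spread over the positions of members. In introns 24.7% of 453 members (interval 20.8 to 29.0) had it, against 9.27% in their flanks (97 in the centre alone, 27 in the flank alone, exact binomial adjusted p = 7.42e-10). Among intergenic members it was 122 of 780 (15.6%), against 8.08% in flanks (exact binomial adjusted p = 6.50e-06). In coding exons it was 39 of 532 (7.33%) with 5.45% in flanks, and in untranslated exons 30 of 264 (11.4%) with 8.33% in flanks, and neither difference passed (exact binomial adjusted p = 0.301 and 0.302). Set against optimal peaks of the same position, members had it less often in introns (33.2% of optimal; odds ratio 0.662, Fisher's exact adjusted p = 0.0140) and between genes (32.7%; odds ratio 0.382, adjusted p = 3.87e-19). In coding exons no difference passed (10.2% of optimal; odds ratio 0.699, interval 0.378 to 1.34). These 8 tests were added after the data were seen. Next weaker regions had the core in 18.2% of cases in introns, 14.9% between genes, 7.51% in untranslated exons and 5.17% in coding exons. That order was the same as in members. Among intron and intergenic regions alone, members and next weaker regions did not differ past the threshold (odds ratio 1.17, Fisher's exact p = 0.146). Promoter members had the core in 12.2% of cases and other members in 17.3% (odds ratio 0.662, interval 0.513 to 0.852, Fisher's exact adjusted p = 0.00777 over 8 tests chosen after the data were seen). Their mean GC content was 37.7% ± 6.31 and 39.6% ± 6.94 (SD). Among optimal peaks the shares were 31.1% at promoters and 26.9% elsewhere, and whether the 2 patterns differ was not tested. Members found in both replicates had it in 14.7% of cases and those found in 1 replicate in 20.2% (odds ratio 0.680, interval 0.423 to 1.13, Fisher's exact adjusted p = 0.224), which did not pass.

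The CHR-like element showed no such centring at members, nor one that passed at the 679 weakest optimal peaks. TTYGAA was within 100 bp of the summit in 1055 members (49.7%) and in the flanks of 1097 (51.6%; exact binomial adjusted p = 0.203). At optimal peaks it was in 59.2% of centres against 48.4% of flanks (adjusted p = 2.94e-15), and members had it less often than those (odds ratio 0.680, interval 0.606 to 0.764, Fisher's exact adjusted p = 1.41e-10). Against the 679 weakest optimal peaks, at 53.9%, the difference did not pass (odds ratio 0.844, interval 0.707 to 1.01, Fisher's exact adjusted p = 0.0832), nor did it against the next weaker regions, at 47.2% (odds ratio 1.103, interval 0.976 to 1.25, Fisher's exact adjusted p = 0.143). Among the 679 weakest optimal peaks TTYGAA was in 366 centres against 333 flanks, which did not pass (exact binomial adjusted p = 0.0876). Among the next weaker regions it was in fewer centres (1003) than flanks (1073; exact binomial adjusted p = 0.0398). TTYGAA is a common sequence, held by 54.9% of the autosomal tiles. The repeat GAGAGAG, by contrast, was about as frequent at members (6.97%) as at optimal peaks (6.95%; odds ratio 1.00, interval 0.796 to 1.26). It was in 148 centres against 64 flanks of members (exact binomial adjusted p = 8.25e-09) and in 4.61% of next weaker regions (odds ratio 1.55, Fisher's exact adjusted p = 0.00229). It is in 2.73% of tiles and 5.12% of upstream windows.

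tRNA genes were a further place where members lay. A summit was within 200 bp of a tRNA gene in 76 members (3.58%), against 67 optimal peaks (2.47%), 35 of the 679 weakest optimal peaks (5.15%) and 24 next weaker regions (1.13%). For tRNA, snRNA, snoRNA and miRNA genes as 1 class, 4.99% of members were that near, against 6.77% of optimal peaks (odds ratio 0.723, Fisher's exact adjusted p = 0.0162), 8.98% of the 679 weakest optimal peaks (0.532, adjusted p = 5.25e-04) and 2.45% of next weaker regions (2.09, adjusted p = 3.43e-05). The B box form GTTCGANNC, which partly overlaps TTYGAA where an A follows, was found in 56 of the 76 members at tRNA genes (73.7%) and in 1.90% of the other members. Among optimal peaks the shares were 74.6% and 1.89%, and among next weaker regions 54.2% and 1.86%. The B box is a part of tRNA genes, so its presence there follows from the choice of regions. Of the 76, 13 held TTSSCGC and 19 had a protein-coding start within 500 bp. Members at snoRNA genes numbered 9, against 81 optimal peaks and 15 next weaker regions. Those at snRNA genes numbered 17, against 26 and 9, and those at miRNA genes 4, against 11 and 4. The control was not analysed here.

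A description of short sequences, made after the data were seen and with no test, gave related words. Among 6-base sequences found in at least 60 members within 50 bp of the summit, the 12 with the highest ratio of centres to flanks (5 added to each count) all contained CG. GCGCAC, on either strand, was in 132 centres and 32 flanks of members, against 363 centres and 66 flanks of optimal peaks. CGCGCG was in 67 centres and 16 flanks of members, against 310 centres and 12 flanks of optimal peaks.

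The genes beside the members were counted next. A member summit was within 500 bp of a start of 1068 of 17242 autosomal protein-coding genes (6.19%). An optimal peak was that near to 2161 genes (12.5%). Among the 15081 genes with no optimal promoter peak, 943 had a member (6.25%), and this is the share against which each gene list is read below. The median of their strongest member's signal was 31.01, and that member held TTSSCGC at 11.5% and TTYGAA at 52.8% of these genes. Of the 976 promoter members, 122 were at a gene that also had an optimal promoter peak. No test was made on the lists, which were chosen with earlier results of these data known.

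Cell division genes were counted first. Of the 45 autosomal DNA replication genes, 35 had an optimal promoter peak. Of the other 10, 0 had a member, which allows a share of up to 30%, a limit that covers counting error only. In this list rnr-2, the ribonucleotide reductase small subunit gene, and orc-2 of the origin recognition complex had weaker regions, at 14.9 and 12.8. Of 31 mitosis and cell cycle genes with no optimal promoter peak, 10 had a member (32.3%). At cdk-1, the mitotic cyclin-dependent kinase, the member (III, 9747226 to 9747515) had a joint signal of 39.0, with 24.0 in replicate 1 and 17.4 in replicate 2. Its summit was upstream of the start and 494 bp from an optimal summit. At mat-1, a subunit of the anaphase-promoting complex, the values were 38.8 jointly, 25.7 in replicate 1 and 21.4 in replicate 2, in an intron. At tpxl-1, the activator of the Aurora A kinase, they were 37.5, 11.5 and 25.6, the higher in replicate 2. Of 29 DNA repair and checkpoint genes without an optimal peak, 5 had a member (17.2%). They were led by the Fanconi anaemia gene fnci-1 (34.2 jointly, 25.8 in replicate 1 and 17.8 in replicate 2), the helicase gene rtel-1 (32.2, 27.1 and 10.8) and the recombination gene rad-54.L (31.5, 15.01 and 12.7). The rad-54.L summit was nearer to snx-3. The values at rtel-1 were unequal between replicates by more than a factor of 2. The repair genes brd-1 and brc-2 had weaker regions, at 20.2 and 19.6.

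Germ line lists gained members as well. Of 16 meiotic chromosome genes with no optimal promoter peak, 5 had a member (31.3%). At him-17 the joint signal was 36.2, with 12.6 in replicate 1 and 16.8 in replicate 2, and an optimal summit lay 449 bp away. At the synaptonemal complex gene syp-3 it was 35.9, with 30.1 in replicate 1 but 6.48 in replicate 2. At spo-11, which makes the meiotic double-strand breaks, it was 34.9, with 22.1 and 12.7. The others were at htp-1 and him-3, which encode chromosome axis proteins, the htp-1 summit being nearer to ZK616.5. The member at him-3 was also that of the P granule gene pgl-1. This region (IV, 6977127 to 6977416; 34.9 jointly, 21.1 in replicate 1 and 10.7 in replicate 2) lay 236 bp upstream of a start of him-3 and 23 bp upstream of one of pgl-1, and counted for both. Of 22 oogenesis and early embryo genes without an optimal peak, 6 had a member (27.3%). Examples were the oocyte regulator lin-41 (37.9 jointly, 26.8 and 11.2 in replicates 1 and 2), par-5 (32.1, 21.4 and 29.9) and skn-1, a transcription factor of early blastomeres (31.2, 15.4 and 9.73). puf-6 had a weaker region, at 21.5.

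Of 29 P granule and small RNA genes without an optimal peak, 12 had a member (41.4%), and the strongest member of 0 of these 12 contained TTSSCGC, against 11.5% over all 943 such genes, a share at which few of 12 would hold it. The strongest was at pid-2, a piRNA silencing gene (38.5 jointly, 23.9 in replicate 1 and 16.3 in replicate 2). The next was at tofu-2, a gene of piRNA production (35.8, 29.6 and 8.58), followed by pgl-1 described above. The tofu-2 values differed by more than a factor of 2 between replicates. The P granule helicase gene glh-1 had only a region of 8.50, found in replicate 2 (7.06) and not in replicate 1. Among chromatin regulators 1 of 18 genes had a member (5.56%), chaf-1 of the chromatin assembly factor (34.7 jointly, 30.9 and 10.9). This share was near that of all genes. mes-3 and mes-4, which encode germ line chromatin regulators, had weaker regions, at 9.72 and 14.8.

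Among the genes of E2F, DREAM and the related synMuv class, 2 of 13 without an optimal peak had a member (15.4%), both subunits of DREAM itself. At lin-52 the joint signal was 29.6, with 29.6 in replicate 1 and 7.19 in replicate 2, and an optimal summit lay 958 bp away. At lin-37 it was 29.0, with 12.2 in replicate 1 and 17.6 in replicate 2, in a coding exon 66 bp downstream of the start. Neither had TTSSCGC within 100 bp of the summit. efl-1 (382), lin-35 (317) and dpl-1 (68.2) had optimal peaks, and efl-2 had no region of the joint list within 500 bp of a start.

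Broadly expressed classes were also among the lists with the highest shares. Of 15 ribosomal protein genes with no optimal promoter peak, 7 had a member (46.7%), led by rpl-33 (39.96 jointly, 18.3 in replicate 1 and 19.3 in replicate 2), rpl-10 (39.5, 32.7 and 15.9) and rps-8 (31.9, 37.9 and 24.6). In 4 of these 7 the summit was nearer to a start of another gene: farl-11 for rpl-33, ints-11 for rpl-10, pab-1 for rpl-30 and calf-1 for rpl-2. The rps-8 member was 489 bp downstream of its start and within 1000 bp of an optimal summit. Of 14 proteasome genes, 6 had a member (42.9%), with rpn-10 at 38.9, rpn-12 at 37.3 and pbs-2 at 33.1 jointly. The pbs-2 summit was nearer to eif-6, and the region counts for that gene too, in the translation list. Of 35 translation factor and tRNA synthetase genes, 10 had one (28.6%), with gars-1 at 38.3, nars-1 at 37.4 and eif-2beta at 34.9, the nars-1 summit being nearer to nduf-6. For nuclear pore genes it was 2 of 9 (22.2%), npp-20 at 38.5 and npp-4 at 26.6. For RNA polymerase and general transcription factor genes it was 5 of 25 (20%), led by rpc-2 at 38.2, taf-7.2 at 35.4 and rpoa-12 at 32.9, the taf-7.2 summit being nearer to elpc-2. At npp-20 the replicates were close, with 20.8 in replicate 1 and 19.9 in replicate 2, and no optimal summit lay within 76129 bp.

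In lists of sperm and somatic genes the share was between 2.38% and 8.33%, against 6.25% of all genes. Of 24 spermatogenesis genes without an optimal peak, 2 had a member (8.33%), the kinase gene spe-6 (38.8 jointly, 26.9 in replicate 1 but 7.58 in replicate 2) and spe-29 (28.5, 16.4 and 8.52), and spe-4 had no region. Of 26 body muscle genes 2 had one (7.69%), the attachment gene unc-112 (39.7, 15.3 and 26.9) and the cofilin gene unc-60 (29.3, 18.7 and 16.8). Of 23 intestine genes 1 had one (4.35%), the fatty acid desaturase gene fat-6 (29.7, 18.8 and 9.76). Of 32 hypodermis and cuticle genes 2 had one (6.25%), the collagen genes col-140 (26.99, 19.03 and 15.3) and col-63 (25.9, with 20.7 in replicate 1 and no region in replicate 2). Of 42 neuron genes 1 had one (2.38%), unc-31 of neuropeptide release (37.3, 20.5 and 15.1).

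**Figure D5:**
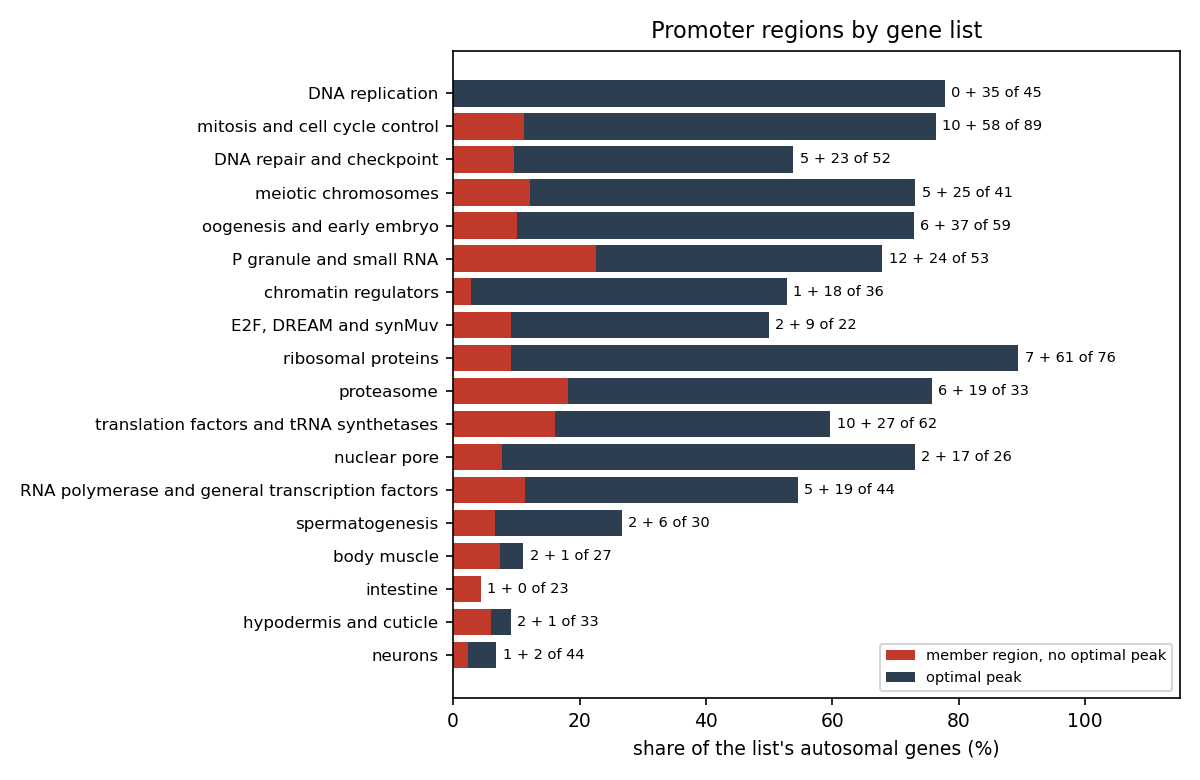
Share of each list's autosomal genes, in %, with a member promoter region and no optimal one (left part of each bar) and with an optimal promoter peak (right part); the labels give both counts and the number of autosomal genes. DNA replication shows 0 and 35 of 45 genes, P granule and small RNA genes 12 and 24 of 53, and neurons 1 and 2 of 44.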

How the data were processed

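Lists of regions in narrowPeak format, on ce10 and on ce11, were deposited by the authors. The deposited text files name the alignments each list was derived from: the replicate's own, or both for the joint list, and a further one that they also give for control-normalized signal. The optimal list was derived from these 3 lists and is named there as thresholded by the irreproducible discovery rate. Peak caller, aligner and threshold: not given in the sources used here. Each region's signal value and −log10 q-value are the authors' own, as deposited, on a scale that is not stated. The deposited summit offset was added to the region's start. Coordinates are those of ce11 and count from 1. They were read against WBcel235 sequence and Ensembl 115 gene models, and 0 autosomal joint regions run past a chromosome's end.

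Members were set against all autosomal optimal peaks, the 679 weakest of these and the 2124 autosomal regions directly below signal 25. Summit positions were compared with 25635 start sites of 17242 autosomal protein-coding genes. Shares have exact (Clopper-Pearson) 95% intervals for counting error. Tests were two-sided Fisher's exact and exact binomial tests (SciPy 1.17.1, Python 3.11.15), adjusted by Benjamini-Hochberg within each family. The planned families held 33 and 16 tests, and each family added after the data were seen held 8. Simulated regions were used to check the start-site counts and the motif search, not the p-values or their adjustment. A replicate's value is that of its strongest overlapping region. Nothing was tested between samples, since there is 1 group. Read depth is unknown.

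The members, the 18 gene lists and the tests were chosen with earlier results of these data known. Genes named are those at the 20 members with the highest value in the weaker replicate, the 3 strongest in each list without an optimal promoter peak, those next to both signal limits, and a fixed set that includes efl-1, dpl-1 and lin-35. Genes with several members take the strongest. The alternatives were another lower limit, leaving out members near optimal peaks, each replicate's own list, other windows, motif forms and overlaps, and the ce10 list.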

Additional observations from a re-analysis of the deposited data

How the results depend on the processing

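The comparisons of promoter and TTSSCGC shares kept their direction under every alternative run, and 43 of the 50 values computed stayed on the same side of the threshold or within 1.5 times the reported count. The threshold here was 0.05 on p-values without adjustment, which is looser than that on the adjusted ones above. With a start window of 1000 bp the promoter share no longer passed against the next weaker regions (odds ratio 1.12, Fisher's exact p = 0.0791). With the 679 weakest optimal peaks in place of all of them, the TTSSCGC share did not pass (0.820, Fisher's exact p = 0.101). Among intron and intergenic regions alone, an alternative chosen after seeing the data, it did not pass against the next weaker regions (1.17, Fisher's exact p = 0.146). The cause was not tested in these cases. With signals from 30 to below 40, 549 genes had a member and no optimal promoter peak and 1065 members were found in both replicates, since fewer regions enter. A window of 200 bp left 598 such genes, and 455 members were among the strongest 5000 regions of both replicates.

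Without replicate 1 or without replicate 2, with regions of the same ranks in the remaining list, the odds ratios were 0.494 and 0.450 for promoters against the stronger regions and 1.49 and 1.31 against the next weaker ones. For TTSSCGC they were 0.393 and 0.369, and 1.27 and 1.22 (Fisher's exact p = 0.0125 and 0.0372). The ratio of centres to flanks was 1.76 in both, and 861 and 921 genes were found. The ce10 list gave 2110 members. No paired analysis was possible because there is 1 group. Depth limits all of this: the number of reads behind a signal of 25 to 40 is unknown.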
